A study of Bienertia sinuspersici with 9 samples.

Results

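PYL9, CIPK9 and NAC002, 3 signalling genes of the abscisic acid and stress response, were followed through leaf development in Bienertia sinuspersici, a plant that carries out C4 photosynthesis inside single leaf cells. The 3 unigenes (assembled transcripts) were taken by their identifiers: BS1472_c2_g1_i7, named PYL9, BS4987_c1_g1_i2, named CIPK9, and BS2935_c0_g1_i7, named NAC002. Each name is that of the closest Arabidopsis gene (AT1G01360, AT1G01140 and AT1G01720), and the function of these genes in Bienertia was not measured. They are 3 of the 11709 unigenes that have a normalized level and of the 36907 that have any level. The rule that picks them names identifiers only and sets no threshold on a value, though results of these data were known when they were picked. Poly(A) RNA of wild-type leaves was sequenced in 9 libraries, 3 biological replicates each of young, intermediate and mature leaves. The labels name no treatment, stress or hormone, and no control other than the stages themselves. According to the paper, the soil-grown plants were regularly watered with NaCl solution, and no leaves grown without salt were sequenced. Only the tip of each mature leaf was taken, so stage and part of the leaf cannot be told apart, and how many plants make up a replicate is not stated in the sources used, which means that p-values reflect only how far these libraries vary.

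Abscisic acid (ABA) is the hormone that plants make when water is short, and it closes stomata, slows growth and switches on protective genes. In Arabidopsis, PYL9 belongs to the PYR/PYL/RCAR receptors, which bind ABA and then block the protein phosphatases 2C that hold the pathway off, and PYL9 has been linked to leaf senescence under drought. CIPK9 is a protein kinase that is activated by calcium sensors of the CBL family and is known for its part in potassium homeostasis. NAC002, also called ATAF1, is a transcription factor of the NAC family whose transcript responds to wounding, drought and ABA. The unit used below is TPMTMM, TPM values (transcript abundance per length, relative to the library) that the authors scaled between libraries by the trimmed mean of M values. Stages were compared by limma, with 1 model of all 9 libraries on the log2(TPMTMM + 1) scale and p-values adjusted by Benjamini-Hochberg over all 11709 unigenes and called below 0.05.

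The receptor PYL9 was the only member called in the main fit: it rose in mature leaves over both earlier stages. CIPK9 and NAC002 did not pass the test between any stages in this fit, and their replicates of 1 stage lay far apart. Between mature and young leaves, 1 of the 3 genes was higher, where 24.2% of all unigenes were higher and 23.9% lower (48.1% in either direction). Between mature and intermediate leaves, again 1 of the 3 was higher, where 16.1% of all unigenes were higher and 15.9% lower. Between intermediate and young leaves none of the 3 was called, nor at an unadjusted p under 0.05, where 5.75% of all unigenes were called in either direction. In a moderated F test over the 3 stages, which called 41.9% of unigenes, the adjusted p was 0.00159 for PYL9, 0.303 for NAC002 and 0.838 for CIPK9.

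**Figure D1:**
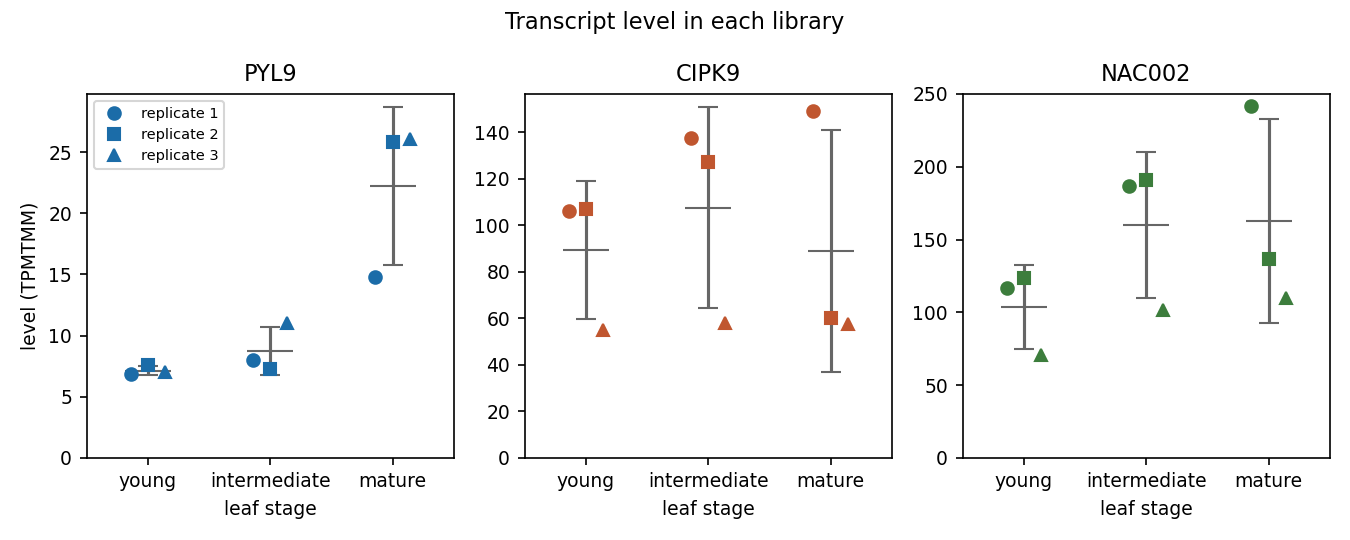
Level of each gene (TPMTMM, y axis from 0) in the 9 libraries, by leaf stage on the x axis. Points are single libraries, with 1 symbol per replicate number, and the grey bar and whiskers are the mean and SD of 3 libraries. The mature PYL9 points, from 14.8 to 26.1, lie above all other PYL9 points, whereas CIPK9 and NAC002 points of the 3 stages overlap.

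PYL9 was the least abundant of the 3 genes. Its level was 6.86, 7.57 and 7.003 TPMTMM in young replicates 1, 2 and 3. It was 7.996, 7.27 and 10.99 TPMTMM in intermediate replicates 1, 2 and 3, and 14.8, 25.8 and 26.1 TPMTMM in mature replicates 1, 2 and 3. Every mature library was above every young and intermediate library, a pattern that 19.6% of all unigenes shared, while young and intermediate libraries overlapped. Mature replicate 1 was the lowest of its stage, and intermediate replicate 3 was the highest of its stage.

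The mean PYL9 level was 22.3 ± 6.45 TPMTMM in mature leaves, against 7.14 ± 0.378 TPMTMM in young leaves (SD, n = 3 each), a ratio of 3.12. On the log2 scale PYL9 was higher in mature than in young leaves by 1.47 ± 0.22 (SE; 95% interval 0.96 to 1.98; limma adjusted p = 0.000736). Against intermediate leaves, at 8.75 ± 1.97 TPMTMM (SD, n = 3), mature leaves were higher by 1.23 ± 0.22 on that scale (SE; 95% interval 0.72 to 1.74; limma adjusted p = 0.00376). The change between intermediate and young leaves was 0.24 (95% interval -0.27 to 0.75; limma adjusted p = 0.630), so this step alone could not be told from the spread between libraries. The difference between the 2 steps was not tested.

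The rise was also present before scaling. In TPM, PYL9 had 6.76, 7.67 and 7.41 in young leaves, 8.23, 7.22 and 10.3 in intermediate leaves and 11.5, 20.0 and 18.6 in mature leaves. On this scale too, every mature library was above every library of the earlier stages, though the share of all unigenes with that pattern in TPM was not computed. Young libraries had a scaling factor of 0.858 ± 0.0171, intermediate libraries one of 0.932 ± 0.0587 and mature libraries one of 1.26 ± 0.0421 (SD, n = 3 each), so the change is smaller in unscaled TPM, at 1.06 on the log2 scale between mature and young leaves, where the median of all unigenes lay at -0.57. In TPMTMM, without any 1 of the 9 libraries, the change between mature and young leaves stayed between 1.34 and 1.73, and all 9 of these fits called it.

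**Figure D2:**
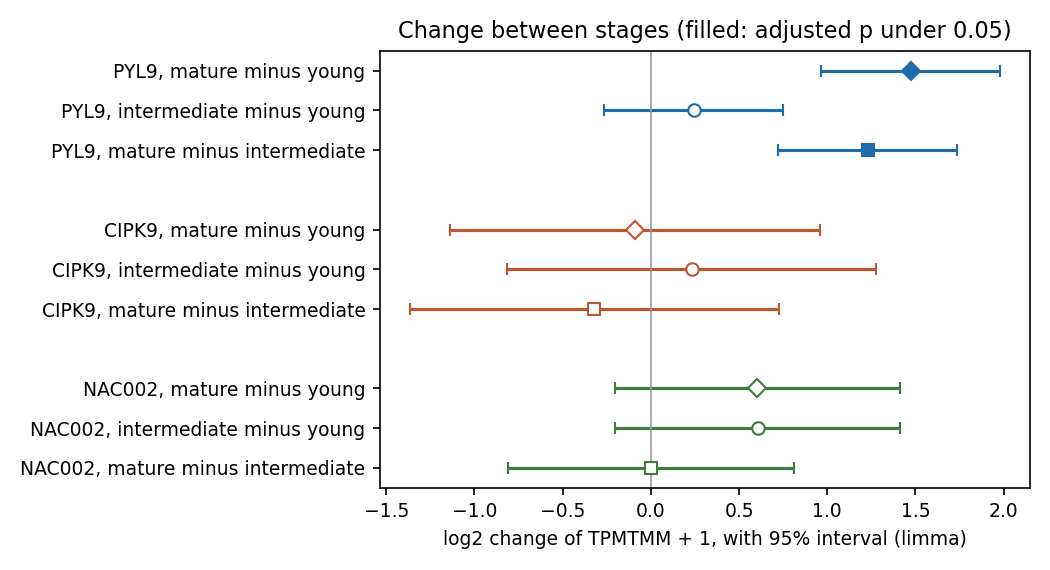
Log2 change of TPMTMM + 1 between stages for each gene (x axis), with 95% limma intervals, for mature minus young (diamonds), intermediate minus young (circles) and mature minus intermediate (squares). Filled symbols passed an adjusted p of 0.05. The PYL9 intervals that involve mature leaves lie wholly above 0, and all intervals of CIPK9 and NAC002 hold 0.

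CIPK9, the CBL-interacting kinase, split the replicates of each stage more than it split the stages. Its level was 106, 107 and 55.1 TPMTMM in young replicates 1, 2 and 3. In intermediate replicates 1, 2 and 3 it was 138, 127 and 57.9 TPMTMM, and in mature replicates 1, 2 and 3 it was 149, 60.3 and 57.4 TPMTMM. The 4 low libraries, young replicate 3, intermediate replicate 3 and mature replicates 2 and 3, lay between 55.1 and 60.3 TPMTMM, and the other 5 lay between 106 and 149 TPMTMM. All 3 stages have libraries in both ranges, so the stages overlapped.

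The mean CIPK9 level was 89.0 ± 52.2 TPMTMM in mature leaves, against 89.4 ± 29.7 TPMTMM in young leaves (SD, n = 3 each), a log2 difference of -0.09 (95% interval -1.14 to 0.96; limma adjusted p = 0.887). In intermediate leaves it averaged 108 ± 43.4 TPMTMM (SD, n = 3), which was 0.23 above young leaves on the log2 scale (95% interval -0.82 to 1.28; limma adjusted p = 0.851). The change between mature and intermediate leaves was -0.32 (95% interval -1.37 to 0.73; limma adjusted p = 0.638). Each interval reaches about 1 log2 unit to either side of its estimate, so the data do not show that CIPK9 stayed level. In unscaled TPM the change was -0.64 between mature and young leaves and -0.76 between mature and intermediate leaves, where the medians of all unigenes were -0.57 and -0.43, and neither was called.

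NAC002, the transcription factor, was the most abundant member. Its level was 117, 124 and 70.9 TPMTMM in young replicates 1, 2 and 3. In intermediate replicates 1, 2 and 3 it was 187, 191 and 102 TPMTMM, and in mature replicates 1, 2 and 3 it was 242, 137 and 110 TPMTMM. The lowest library of each stage was replicate 3, the highest of all was mature replicate 1, and the 3 stages overlapped.

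The mean NAC002 level was 163 ± 69.8 TPMTMM in mature leaves, against 104 ± 28.6 TPMTMM in young leaves (SD, n = 3 each), a log2 difference of 0.60 ± 0.36 (SE; 95% interval -0.21 to 1.41; limma adjusted p = 0.193). Intermediate leaves, at 160 ± 50.2 TPMTMM (SD, n = 3), were above young leaves by 0.60 ± 0.36 (SE; 95% interval -0.20 to 1.41; limma adjusted p = 0.399). Between mature and intermediate leaves the change was -0.00 (95% interval -0.81 to 0.81; limma adjusted p = 0.998). In unscaled TPM the change of NAC002 between mature and young leaves was 0.06, where the median of all unigenes was -0.57. In TPMTMM, with 1 library left out in turn, this change ranged from 0.28 to 0.85. It was 0.28 without mature replicate 1, 0.35 without young replicate 3 and 0.85 without mature replicate 3.

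The replicate numbers matter for the earlier step of NAC002. Young and intermediate libraries of the same number deviated together from their stage means (r of 0.467, 0.445 and 0.696 for numbers 1, 2 and 3), but young replicate 1 was closer to intermediate replicate 2 (r = 0.508) and young replicate 2 to intermediate replicate 1 (r = 0.547), so the data set number 3 apart and do not tell numbers 1 and 2 from each other. Within each number NAC002 was higher in the intermediate library, by 0.67, 0.62 and 0.52 on the log2 scale for numbers 1, 2 and 3. When the replicate number was a block and only these 2 stages were fitted, the change of 0.60 had an SE of 0.085 and an adjusted p of 0.0049 in limma, whereas a block over all 9 libraries gave an adjusted p of 0.089, so the call depends on the pairing and on the libraries fitted. The labels state no pairing, and it was judged from these same data, so the paired p-values are not independent evidence. In the paired fit of 2 stages CIPK9 had an adjusted p of 0.108 and PYL9 one of 0.245. Paired within numbers, CIPK9 was also higher in all 3 intermediate libraries, by 0.37, 0.25 and 0.07.

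The spread of CIPK9 and NAC002 moved with a pattern that ran through the libraries as a whole. In classical multidimensional scaling of all unigenes, the first dimension (67.8% of the variation) ordered the stages, and the second (18.2%) separated libraries within stages. On the second dimension, young replicate 3 (-0.166), intermediate replicate 3 (-0.154), mature replicate 2 (-0.101) and mature replicate 3 (-0.147) were negative. The other 5 libraries were positive, from 0.0614 to 0.242, with mature replicate 1 at the upper end. The 4 negative libraries are those with the 4 lowest CIPK9 levels. What sets these 4 libraries apart is not given in the labels, and its part in the result was not tested.

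The residual SD within stages on the log2 scale was 0.67 for CIPK9, 0.51 for NAC002 and 0.31 for PYL9, against a median of 0.19 over all unigenes. The share of unigenes with a smaller residual SD was 96.2% for CIPK9, 92.9% for NAC002 and 78.8% for PYL9. With the position on the second dimension as a further term in the fit, the residual SD was 0.09 for CIPK9, 0.09 for NAC002 and 0.18 for PYL9, against a median of 0.14. In that fit NAC002 was called higher in mature than in young leaves (0.58; limma adjusted p = 0.000305) and in intermediate than in young leaves (0.53; adjusted p = 0.00567), and CIPK9 was called lower in mature than in intermediate leaves (-0.26; adjusted p = 0.0277). PYL9 remained called in both comparisons with mature leaves, at 1.48 against young leaves (adjusted p = 1.25e-05) and 1.21 against intermediate leaves (adjusted p = 0.000101). The dimension was computed from the same libraries, the members included, so this fit is not independent evidence.

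CIPK9 and NAC002 varied together over the 9 libraries. Pearson's r of their log2 levels was 0.82 over 9 libraries that share 3 stages and the split described above, and 96.2% of unigenes had a lower r with CIPK9 than NAC002 had. PYL9 had an r of -0.43 with CIPK9 and of 0.09 with NAC002 over the same 9 libraries. Within mature leaves PYL9 ran the other way from the other 2 genes: replicate 1, the lowest PYL9 library of that stage, was the highest in CIPK9 and NAC002.

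The order of abundance was NAC002, then CIPK9, then PYL9 in all 9 libraries in TPM, which counts transcripts per length. The ratio of NAC002 to CIPK9 TPM within a library is free of the scaling between libraries. This ratio was 1.099, 1.16 and 1.30 in young replicates 1, 2 and 3, then 1.36, 1.51 and 1.76 in intermediate replicates and 1.63, 2.299 and 1.94 in mature replicates in the same order. Every mature and intermediate library was above every young library, and mature and intermediate libraries overlapped. Its mean was 1.19 ± 0.102 for young leaves, 1.54 ± 0.202 for intermediate leaves and 1.96 ± 0.335 for mature leaves (SD, n = 3 each). The ratio was chosen after the values were seen and is given as a description with no test. How many other pairs of unigenes show such a pattern was not computed. Of single unigenes in TPMTMM, 18.2% had all intermediate libraries above all young ones, and 28% had all mature libraries above all young ones.

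**Figure D3:**
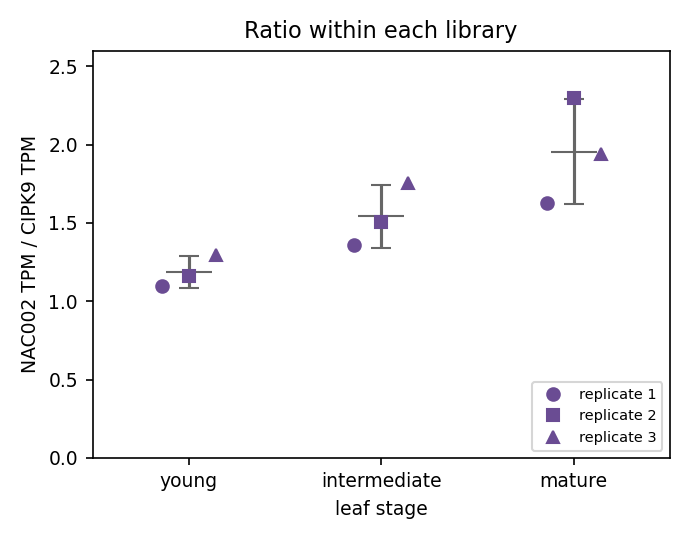
Ratio of NAC002 TPM to CIPK9 TPM within each library (y axis from 0), by leaf stage on the x axis. Points are single libraries, and the grey bar and whiskers are the mean and SD of 3 libraries. The young points, up to 1.30, lie below all intermediate and mature points, from 1.36 up.

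Averaged over the 9 libraries, NAC002 stood at 142 TPMTMM and CIPK9 at 95.4 TPMTMM, above 94.3% and 91.2% of the unigenes. PYL9 stood at 12.7 TPMTMM, above 39.2% of them, near the median unigene at 17.2 TPMTMM. The assembly holds a further unigene of the same Trinity gene (a group of transcripts assembled from shared reads) for CIPK9 and for NAC002, and none for PYL9. The CIPK9 unigene took 82.1% to 88.5% of the TPM of its group, next to BS4987_c1_g1_i8, which ranged from 7.46 to 24.3 TPM. The NAC002 unigene took 97.8% to 98.4% in 8 libraries and 90.4% in mature replicate 3, where BS2935_c0_g1_i9 reached 8.79 TPM, against 1.75 to 4.26 TPM in the other 8 libraries. Reads of such similar transcripts are shared out by estimate, so each unigene's own level is uncertain. With the TPM of a group summed, no call on the 3 genes differed.

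The unigenes whose levels ran most like each gene over the 9 libraries were named by the highest Pearson r of log2(TPMTMM + 1). These r are the extremes of 208 named unigenes, or of the 8062 whose mean reached 10 TPMTMM, over libraries that share stages, so they describe likeness only. The 208 are only those given a name here, a small part of the 11709, so other unigenes with an Arabidopsis match may be closer. Among named unigenes PYL9 was most like ISA2 (r = 0.98), a debranching enzyme subunit of starch synthesis, HMGB15 (0.97), a DNA-binding high mobility group protein, and LFG4 (0.96), of the Bax inhibitor family. ISA2 had 11.997 to 13.1 TPMTMM in young leaves, 13.6 to 20.98 TPMTMM in intermediate leaves and 20.97, 30.8 and 36.5 TPMTMM in mature replicates 1, 2 and 3. As with PYL9, mature replicate 1 was the lowest mature library of ISA2 and intermediate replicate 3 the highest of its stage. HMGB15 had 2.47 to 7.39 TPMTMM in mature leaves, against 0.857 to 1.68 TPMTMM in young leaves, near the floor of the scale, since a TPM that rounds to 0 is given the library factor as its TPMTMM. LFG4 had 11.1 to 24.8 TPMTMM in mature leaves, against 5.89 to 7.003 TPMTMM in young leaves. The 3 most like PYL9 among the 8062 were BS22236_c0_g1_i1, BS35567_c0_g2_i2 and BS19042_c0_g1_i4 (all r = 0.99), for which no name was used here.

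Among the 208 named unigenes, CIPK9 and NAC002 shared 2 of their 3 most similar, PLIP2 and PPA1. PLIP2 is a plastid lipase linked to ABA and jasmonate in Arabidopsis, and PPA1 is a soluble inorganic pyrophosphatase. The r of PLIP2 was 0.93 with CIPK9 and 0.93 with NAC002, and that of PPA1 was 0.89 with CIPK9 and 0.96 with NAC002. CIPK9 was closest to the unigene matched to AT1G03290 (r = 0.97), and NAC002 to MCCA (0.97), a subunit of methylcrotonoyl-CoA carboxylase, which works in leucine breakdown in mitochondria. PPA1 was lowest in young replicate 3, at 32.4 TPMTMM, and highest in mature replicate 1, at 350 TPMTMM, the same libraries in which NAC002 was lowest and highest. MCCA had 27.1, 12.3 and 10.4 TPMTMM in mature replicates 1, 2 and 3, against 9.43, 10.1 and 6.13 TPMTMM in young replicates 1, 2 and 3. The unigene matched to AT1G03290 had 18.5 TPMTMM in mature replicate 1, against 1.23 and 1.31 TPMTMM in mature replicates 2 and 3. Of the 8062 unigenes, BS4523_c0_g1_i5, BS2922_c0_g1_i8 and BS860_c0_g1_i9 were most like CIPK9 (all r = 0.99). BS12330_c1_g1_i6 (r = 0.98), BS96420_c0_g1_i1 and BS64473_c0_g1_i1 (both 0.97) were most like NAC002.

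**Figure D4:**
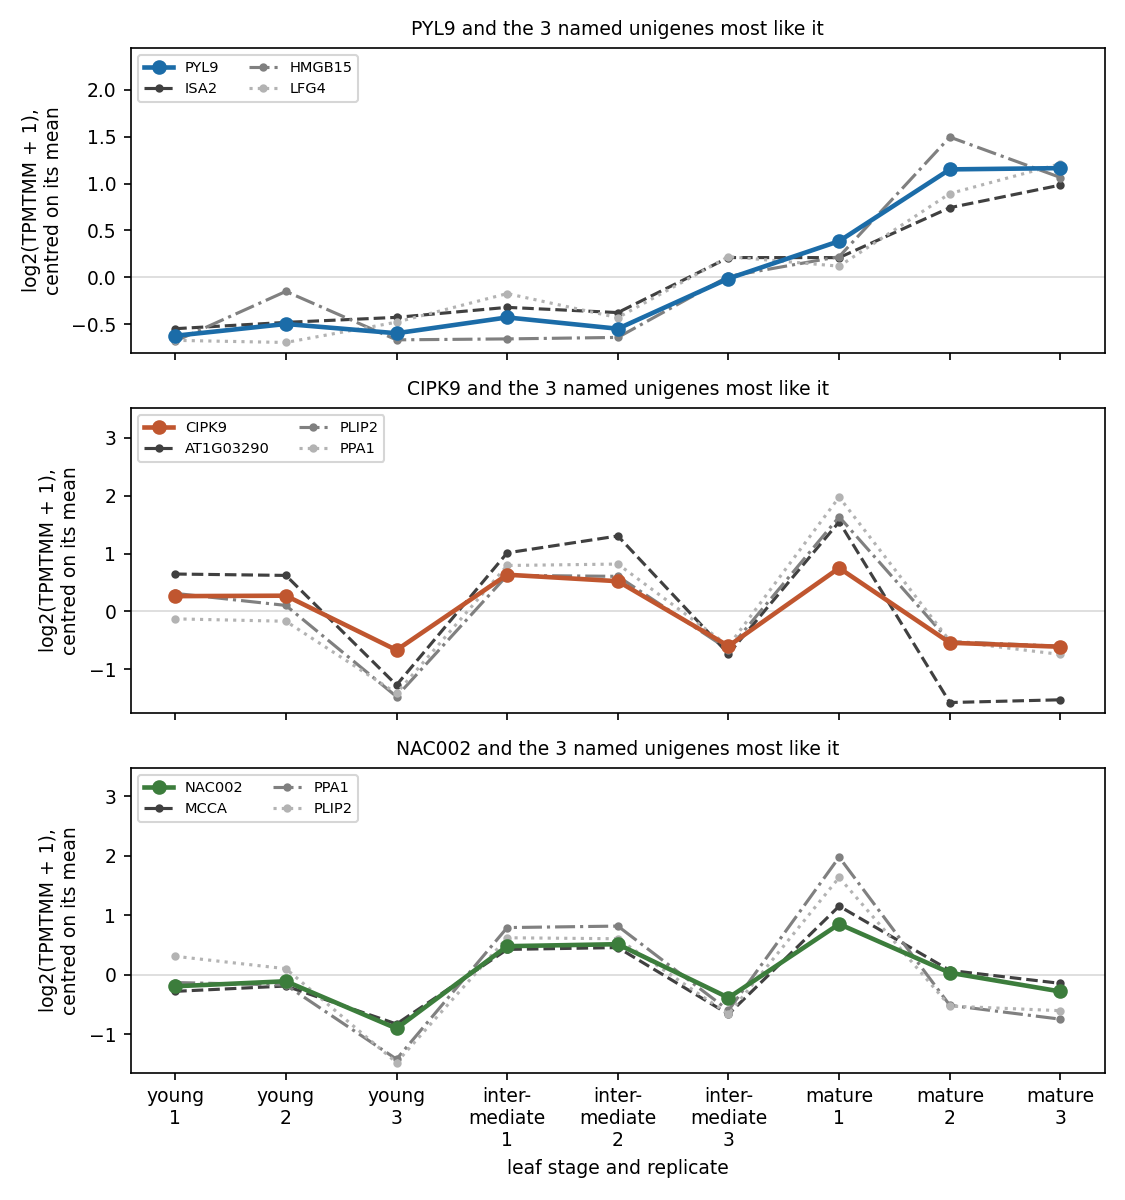
Log2(TPMTMM + 1) of each gene and of its 3 most similar named unigenes, centred on the mean over the 9 libraries (y axis), by library on the x axis. Coloured lines are the 3 genes and grey lines the unigenes compared with them. PYL9 and its 3 unigenes peak in mature replicates 2 and 3, and CIPK9, NAC002 and theirs peak in mature replicate 1.

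A list of 7 other unigenes whose Arabidopsis matches are annotated to ABA, salt, osmotic stress or water shortage was counted beside them. All 7 belong to the 208 named unigenes used above, a small part of all 11709. They do not stand for the whole ABA or osmotic response. Between mature and young leaves 1 of the 7 was higher, 2 were lower and 4 were not called, beside 24.2% higher and 23.9% lower of all unigenes, shares that these counts lie near, with a median log2 change of -0.27, against -0.02 over all unigenes. Between intermediate and young leaves 0 of 7 were called by limma (1 had an unadjusted p under 0.05, CSLD5). Between mature and intermediate leaves 0 were higher and 2 were lower (16.1% and 15.9% of all unigenes), with a median of -0.32, against -0.00 over all unigenes.

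The unigene that rose was AAO4, an aldehyde oxidase of the family that includes the last enzyme of ABA synthesis in Arabidopsis. It had 38.2, 32.003 and 32.6 TPMTMM in mature leaves, against 21.4, 20.2 and 14.9 TPMTMM in young leaves. Every mature library was above every young library, as in 28% of all unigenes. Its log2 change was 0.84 ± 0.21 (SE; limma adjusted p = 0.00987). CER1, which makes the alkanes of the leaf wax, had 3.70, 2.46 and 2.61 TPMTMM in mature leaves, against 38.6, 37.01 and 21.9 TPMTMM in young leaves. CER1 fell by 3.06 on the log2 scale (SE 0.44; limma adjusted p = 0.000569), with mature levels near the floor of the scale. CSLD5, a cellulose synthase-like protein of dividing cells, had 1.23, 1.23 and 1.31 TPMTMM in mature leaves, where its TPM was at most 0.41, against 10.3, 10.1 and 14.01 TPMTMM in young leaves. CSLD5 fell by 2.45 on that scale (SE 0.15; limma adjusted p = 8.78e-06), a size that depends on the floor because all 3 mature TPM round to 0. CER1 and CSLD5 were also the 2 that fell between mature and intermediate leaves, by 3.00 and 1.83 (limma adjusted p = 0.0014 and 9.09e-05).

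The other 4 did not pass in any comparison. PLIP2 had a log2 change between mature and young leaves of 0.52 (95% interval -1.06 to 2.11), with 53.0 TPMTMM in mature replicate 1, against 11.1 and 10.4 TPMTMM in mature replicates 2 and 3. That of ABCC5, a vacuolar transporter of inositol phosphate that acts in guard cells, was -0.11 (95% interval -0.33 to 0.12). The change of KCS2, which elongates fatty acids for waxes and suberin, was -0.27 (95% interval -0.62 to 0.07). SPI, a large BEACH-domain protein linked to salt tolerance, changed by -0.32 (95% interval -0.79 to 0.15). The narrowest of these intervals was that of ABCC5 and the widest that of PLIP2.

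**Figure D5:**
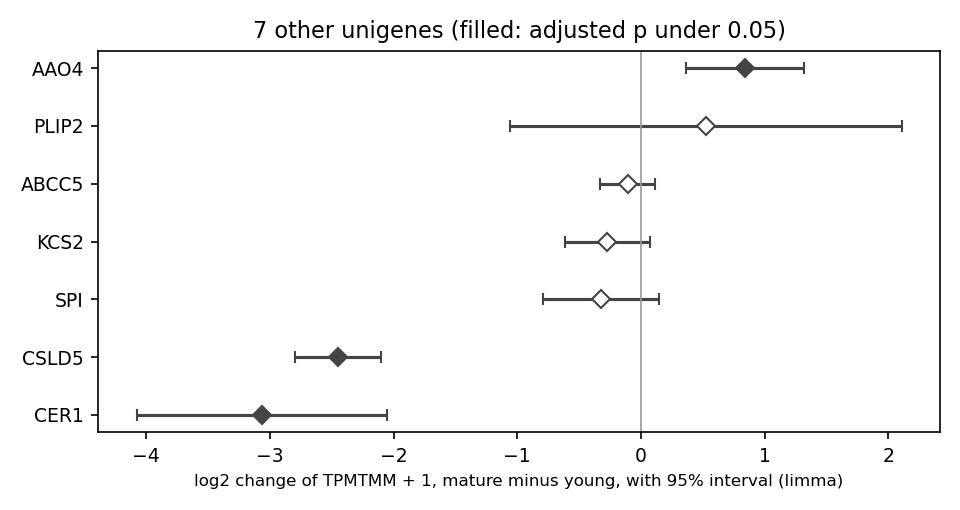
Log2 change of TPMTMM + 1 between mature and young leaves (x axis) with 95% limma intervals for 7 other unigenes annotated to ABA or osmotic stress. Filled symbols passed an adjusted p of 0.05. AAO4 lies above 0, at 0.84, and CSLD5 and CER1 lie below it, at -2.45 and -3.06.

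Genes used as markers of the cells that a leaf holds moved with stage beside PYL9. Among them, PEPC1, PPDK and NAD-ME2 are C4 enzyme genes that the paper reports as upregulated in mature leaves of these libraries. Their rise was thus known beforehand and is no measure of cell number. All 6 leaf photosynthesis markers (PSAD2, PORC, HCAR, PEPC1, PPDK and NAD-ME2) were higher in mature than in young leaves, with summed levels of 4535 to 4591 TPMTMM in young, 7261 to 11508 in intermediate and 22686 to 23258 in mature libraries. All 4 markers of dividing cells (TPX2, CSLD5, HTR12 and BARD1) were lower, summing to 69.0 to 84.9 TPMTMM in young, 51.5 to 55.9 in intermediate and 30.8 to 34.5 in mature libraries. Of the 4 epidermis markers, CER1 and KCS1 were lower and KCS2 and GPAT4 were not called, with sums of 380 to 469 TPMTMM in young, 448 to 476 in intermediate and 262 to 295 in mature libraries. CER1, KCS2 and CSLD5 are also in the list of ABA or osmotic unigenes above, so the same values appear in both. None of these markers was at 0 TPM in any library. Intermediate replicate 3, the intermediate library highest in PYL9, also had the highest leaf sum of its stage, at 11508, against 7280 and 7261 in intermediate replicates 1 and 2. PEPC1, PPDK and NAD-ME2 make up most of that sum, and PORC was lowest of the stage in that library, at 269.7 TPMTMM, against 303 and 275 in the other two. Mature replicate 1, the mature library lowest in PYL9, had sums of 22987 for leaf, 30.8 for dividing and 295 for epidermis markers. Within that leaf sum PSAD2, PORC and HCAR were highest of the mature libraries and PEPC1, PPDK and NAD-ME2 lowest. The part of a changed cell makeup in the rise of PYL9 was not tested, and in bulk leaves fewer cells of a type and less RNA per cell cannot be told apart.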

How the data were processed

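RNA of 9 leaf libraries was sequenced by the authors as paired ends, trimmed with Trimmomatic and assembled de novo with Trinity. They quantified transcripts with RSEM and removed redundant ones by TPM and CD-HIT-EST (versions not given in the sources used here). The deposited values are TPM for 36907 unigenes, and, for 11709 of them, TPMTMM, which is TPM after scaling with TMM (trimmed mean of M values) factors. In 11708 unigenes TPMTMM was the rounded TPM plus 1, times 1 factor per library, within 0.001. The tables hold no counts, so the reads behind each value cannot be read from them and intervals for counting error were not computed.

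Groups came from the labels. Changes were tested with limma 3.58.1 (trend, R 4.3.3) on log2(TPMTMM + 1), with stage as the only term. TPMTMM already holds 1 added to the rounded TPM, and adding 1 again before the log understates the change of low unigenes. For PYL9 in mature against young leaves, unrounded TPM times the library factor, with 1 added, gave 1.56, against 1.47 in the main fit. Tables and figures were made with Python 3.11.15, pandas and matplotlib. The fit was tested on simulated data with independent noise in each library. Such data lack the split along the second dimension, so they do not show how the fit handles it. The 3 genes and the lists were chosen with earlier results of these data known. Named genes are the 3 genes, the 7 listed ABA or osmotic unigenes, the 3 most similar unigenes by r (among named unigenes, or those averaging 10 TPMTMM or more) and others of the same Trinity gene. Cell type markers are named beside them, and CER1, KCS2 and CSLD5 are in both lists. Names are Arabidopsis best hits.

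Libraries of the same number deviated together in young and intermediate leaves (every r over 0.1), although numbers 1 and 2 correlated better across than within numbers (0.508 and 0.547, against 0.467 and 0.445). They did not where mature replicate 2 entered (-0.427 with young and -0.476 with intermediate replicate 2). The labels state no pairing, and the main fit has stage as its only term. On the data alone, the numbers were used as pairs between young and intermediate leaves, although numbers 1 and 2 could not be told from each other. Blocks that include mature leaves are given only as alternatives, because mature replicate 2 deviated the other way. Any 2 libraries shared exactly equal TPM in 0.276% to 2.22% of unigenes, so no library was a copy of another.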

Additional observations from a re-analysis of the deposited data

How the results depend on the processing

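Each comparison of PYL9, CIPK9 and NAC002 was run under 22 alternatives, of which 1, the TPM summed over a Trinity gene, was chosen after seeing the data. PYL9 was called in mature against young leaves in all 22 (1.06 to 1.73) and in mature against intermediate leaves in all 22 (0.86 to 1.49), and in intermediate against young leaves in 0 of 22. NAC002 was above young leaves in all 22 in mature leaves (0.06 to 0.85) and in all 22 in intermediate leaves (0.35 to 0.90). It was called in 2 of 22 in each, and the alternatives share the same libraries. With a replicate block over 9 libraries, NAC002 was called in mature against young leaves (0.60, limma adjusted p = 0.0226). That block pairs mature replicate 2 with young replicate 2, which deviated in opposite directions (r = -0.427). With a block in a fit of 2 stages, NAC002 was called in intermediate against young leaves (0.60) but not in mature against young leaves (adjusted p = 0.063). Over 9 libraries the block did not call NAC002 in intermediate against young leaves (adjusted p = 0.089). The block changed no other call on the 3 genes. With the second dimension as a term, NAC002 was called in mature (0.58) and intermediate (0.53) against young leaves, CIPK9 in mature against intermediate leaves (-0.26), and NAC002 in mature against intermediate leaves was 0.044, against -0.00 in the fit without it, and 0.038 with summed TPM. Without 1 library in turn, CIPK9 ranged from -0.53 to 0.15 in mature against young and from -0.082 to 0.62 in intermediate against young leaves, and NAC002 from -0.33 to 0.24 in mature against intermediate leaves, so these directions are unsettled; none of these fits called CIPK9 or NAC002.

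Unigenes called in intermediate against young leaves numbered 673, but 62 to 1134 without 1 library (by over 1.5 times more or fewer for each library other than mature replicate 3, with 564), 397 with upper-quartile scaling, 328 over all unigenes of the TPM table, 2209 with the second dimension and 2609 with a replicate block when 2 stages were fitted. In mature against young leaves 5630 were called (4686 to 5883 without 1 library), and 11057 over all unigenes. In mature against intermediate leaves 3744 were called (2559 to 3978 without 1 library), 6419 without scaling, 6304 over all unigenes and 5662 with the second dimension. Without scaling, 1297 were higher and 6663 lower in mature than in young leaves, against 2829 and 2801 in TPMTMM, and with upper-quartile scaling 2355 and 3468. The reads behind each value cannot be read from TPM, so what depth limits was not assessed.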
